A study of Mus musculus with 12 samples.

Results

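A set of 10 auxiliary subunit genes of the AMPA-type glutamate receptor was followed in mouse entorhinal cortex (EC) neurons in primary culture. The cultures had reduced or raised expression of Dek, a gene for a chromatin-binding nuclear protein. The 10 genes were taken by gene symbol from the 24100 genes of the deposited expression table. All 10 were present: Cacng2, Cacng3, Cacng4, Cacng8, Cacng5, Cacng7, Cnih2, Cnih3, Shisa7 and Shisa9. Cells were taken at embryonic day 17 from C57BL/6J mice with no engineered allele. They received adeno-associated virus (AAV1) at 1e+10 viral genomes per ml at 7 days in vitro, and RNA was collected 4 days later. The 4 viruses gave 4 groups of 3 wells. Dek-silenced neurons received mCherry and a small hairpin RNA against Dek transcribed from the U6 promoter (AAV1-mCherry-U6-mDEK-shRNA), and their control received a scrambled hairpin in the same vector (AAV1-mCherry-U6-scrmb-shRNA). Dek-overexpressing neurons received mouse Dek cDNA with an IRES-mCherry under the neuronal promoter hSyn1 (AAV1-hSyn1-mDEK-IRES-mCherry), and their control an empty virus with mCherry under hSyn1 (AAV1-hSyn1-mCherry-WPRE). A single hairpin stood for the loss of Dek. Whether the wells within a group came from separate dissections is not stated, so the p-values measure the spread between these wells, which may be technical.

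AMPA receptors carry most fast excitatory transmission in the brain. Their pore is a tetramer of GluA subunits, encoded by Gria1 to Gria4, and in neurons it is bound by small membrane proteins that the auxiliary genes encode. Among the transmembrane AMPA receptor regulatory proteins (TARPs), those of type I slow the closing of the channel. Through a C-terminal tail that binds scaffold proteins such as PSD-95, type I TARPs hold receptors at synapses. Cornichon homologues accompany the receptor out of the endoplasmic reticulum and slow its deactivation and desensitization. The CKAMP proteins of the Shisa family, which carry a cystine knot, form another class. Their founding member Shisa9 (CKAMP44) increases desensitization and slows recovery from it. Of this family, Shisa7 and Shisa9 were followed here and are called the CKAMP genes. Shisa6 and Shisa8 were counted with other auxiliary or complex proteins.

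The estimated counts summed to between 15679567 and 18933382 per library. The lowest total was that of Dek-silenced replicate 1, and the next lowest was 17078551 in empty vector replicate 2. Levels are given as CPM, the count of a gene scaled to the size of its library. Dek lay at 7.98, 6.65 and 8.62 CPM in Dek-silenced wells, against 35.2, 36.6 and 36.4 CPM in scrambled wells, and at 156, 129 and 143 CPM in Dek-overexpressing wells, against 36.0, 38.8 and 41.1 CPM in empty vector wells. The labelled neurons were checked against marker genes of 9 cell types. Summed pan-neuronal markers lay between 6206 and 7562 CPM over the 12 libraries and summed microglial markers between 4.02 and 13.4 CPM. Markers of GABAergic neurons summed to 2060 to 2944 CPM over 9 genes, those of excitatory neurons to 305 to 547 CPM over 7 genes, and astrocyte markers to 397 to 758 CPM. Gad1 alone had group means of 1099 to 1586 CPM. These sums are not divided by length and rest on different genes, so they do not compare the numbers of cells of these types. In bulk RNA, fewer cells of a type and less RNA per cell cannot be told apart.

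Per kilobase of exon, the scale used wherever levels of auxiliary and pore genes are compared with each other, the cornichons were the most abundant auxiliary transcripts. In scrambled wells Cnih2 averaged 135 and Cnih3 43.3 CPM per kb, followed by Cacng7 (22.8), Shisa9 (18.1), Shisa7 (10.95) and Cacng5 (10.6), all in CPM per kb. The 4 type I TARPs formed the low end between 5.38 CPM per kb for Cacng3 and 6.59 CPM per kb for Cacng8, and neighbours among them did not differ beyond the spread of the wells, nor did Shisa7 and Cacng5. Cnih2, Cnih3 and Cacng7 held the first 3 places in all 4 groups. In Dek-silenced wells the level of Cacng5 (12.98 to 15.9 CPM per kb) reached that of Shisa9 (12.4 to 14.1 CPM per kb), and Shisa7 (7.84 to 8.58 CPM per kb) lay below both. The estimated counts behind these levels ran from 198 for Cacng8 to 5293 for Cnih2 in single libraries. The lengths are unions of all annotated exons, so a gene expressed mainly as a short isoform is understated.

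**Figure D1:**
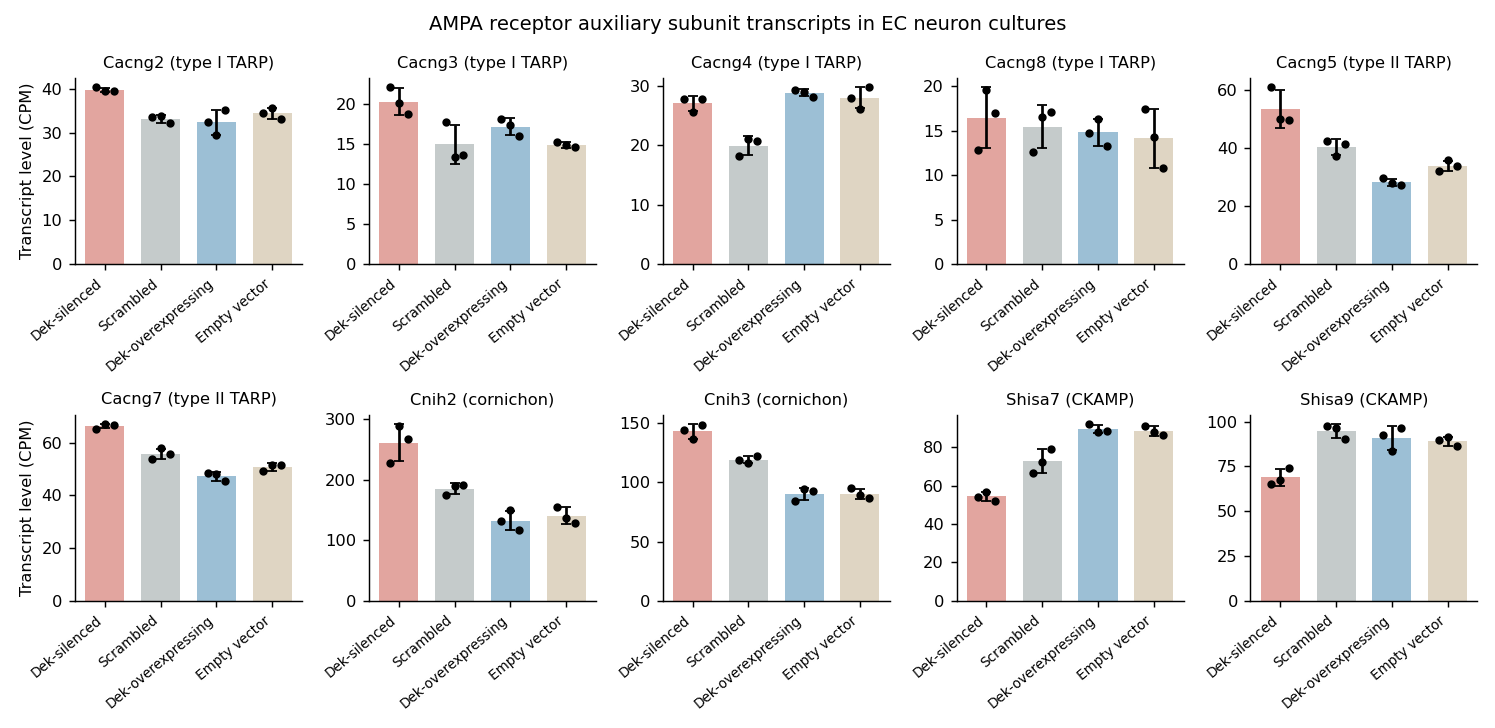
Transcript levels of the 10 auxiliary subunit genes in CPM (vertical axes, starting at 0) in Dek-silenced, scrambled, Dek-overexpressing and empty vector wells; bars are means, error bars the SD and dots the 3 wells of each group. Cnih2 in Dek-silenced wells (228 to 288 CPM) lies above all other wells, while Shisa7 (52.1 to 56.9 CPM) and Shisa9 (64.9 to 74.1 CPM) in Dek-silenced wells lie below all others.

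In Dek-silenced neurons 7 of the 10 auxiliary subunit genes were higher than in scrambled controls, 2 were lower and Cacng8 did not pass the test. Over all 14232 genes tested in this comparison, 26.2% were called higher and 28.5% lower (edgeR, adjusted p below 0.05). The 7 genes that rose, 5 TARPs and both cornichons, did so by 0.24 to 0.48 on the log2 scale. Both CKAMP genes among the 10, Shisa7 and Shisa9, fell. Of the CKAMP family genes outside the 10, Shisa6 fell (log2FC = -0.51) and Shisa8 did not pass (0.49, edgeR adjusted p = 0.16). The median log2FC of the 10 genes was 0.25, beside a median of -0.0011 over all genes tested. The 4 pore subunit genes were lower in the same wells, with a median log2FC of -0.51.

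Among the type I TARPs, Cacng2 encodes stargazin (TARP gamma-2), whose loss causes the stargazer phenotype in mice. Its span on chromosome 15, minus strand, is 77991748 to 78120028 (GRCm38, the assembly also named mm10). Cacng2 was at 40.3, 39.6 and 39.5 CPM in Dek-silenced wells, against 33.6, 33.8 and 32.1 CPM in scrambled wells. The groups did not overlap, and Cacng2 rose by 0.25 on the log2 scale (SE 0.068, 95% interval 0.10 to 0.40, edgeR adjusted p = 0.0084). Its exons share 323 of 5510 bases with an antisense transcript on the other strand, A730060N03Rik, and whether the counting used strand is not given in the sources used here. Cacng3 encodes TARP gamma-3 and lies on the plus strand of chromosome 7 from 122670492 to 122769393. It was at 22.1, 20.1 and 18.7 CPM in Dek-silenced wells and 17.8, 13.4 and 13.7 CPM in scrambled wells. The lowest Dek-silenced well was above the highest scrambled well by less than 1 CPM (log2FC = 0.42, SE 0.12, edgeR adjusted p = 0.0099). The rise of Cacng3 did not pass without scrambled replicate 2 (log2FC = 0.35, edgeR adjusted p = 0.054) or without scrambled replicate 3 (log2FC = 0.36, edgeR adjusted p = 0.0501).

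Cacng4, for TARP gamma-4, spans 107732357 to 107794557 of chromosome 11, minus strand. It was at 27.7, 25.6 and 27.7 CPM in Dek-silenced wells, against 18.2, 21.0 and 20.6 CPM in scrambled wells, with no overlap (log2FC = 0.42, SE 0.088, edgeR adjusted p = 0.0014). Cacng8, for the hippocampus-enriched TARP gamma-8, is on the plus strand of chromosome 7 from 3390683 to 3415648. It was at 12.8, 19.6 and 16.97 CPM in Dek-silenced wells and 12.7, 16.6 and 17.1 CPM in scrambled wells. These ranges overlapped, and the log2FC of 0.08 had a 95% interval of -0.30 to 0.46 (edgeR adjusted p = 0.70), the widest of the 10 genes in this comparison. Cacng8 also had the highest GC content of the 10 genes, at 65.1% of its longest transcript.

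The type II TARPs, Cacng5 (gamma-5) and Cacng7 (gamma-7), differ from type I in their C-terminal tails, and gamma-5 is known from Bergmann glia as well as neurons. Cacng5 lies beside Cacng4 and Cacng1 in a stretch of 212 kb on chromosome 11, and Cacng7 beside Cacng8 and Cacng6 in 103 kb on chromosome 7. Cacng5 was at 61.1, 50.0 and 49.8 CPM in Dek-silenced wells, against 42.6, 37.4 and 41.6 CPM in scrambled wells. It rose with no overlap between groups (log2FC = 0.39, SE 0.088, edgeR adjusted p = 0.0028). Cacng7 was at 65.3, 66.9 and 66.5 CPM in Dek-silenced wells, against 53.9, 57.8 and 55.5 CPM in scrambled wells (log2FC = 0.24, SE 0.060, edgeR adjusted p = 0.0053). The Dek-silenced wells lay closely together above all scrambled wells. After a correction for GC content and length the value of Cacng7 was 0.11 (edgeR adjusted p = 0.14), which did not pass. The remaining Cacng genes, Cacng1 and Cacng6, encode relatives that are not grouped with the TARPs. Cacng6 lay at 1.48, 3.16 and 1.76 CPM in Dek-silenced wells, against 0.908, 1.19 and 0.651 CPM in scrambled wells (log2FC = 1.21, SE 0.36, edgeR adjusted p = 0.013). Cacng1 was too low to be tested there, at 0.0619 to 0.266 CPM in Dek-silenced and 0.357 to 0.651 CPM in scrambled wells.

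Cnih2, for cornichon homologue 2, had the largest rise of the 10 genes in Dek-silenced neurons before any correction for GC content. It is a compact gene on chromosome 19, minus strand, at 5092868 to 5098521. Cnih2 was at 228, 288 and 268 CPM in Dek-silenced wells, against 174, 190.2 and 191 CPM in scrambled wells. The wells did not overlap, and Cnih2 was 39.7% higher (log2FC = 0.48, SE 0.085, edgeR adjusted p = 7.1e-04). Its exons share 14 of 1369 bases with Yif1a on the other strand, which did not pass the test (log2FC = 0.14, SE 0.10, edgeR adjusted p = 0.27). Cnih3, for cornichon homologue 3, is on the plus strand of chromosome 1 from 181352628 to 181460641. It was at 144, 136 and 148 CPM in Dek-silenced wells, against 119, 117 and 122 CPM in scrambled wells (log2FC = 0.25, SE 0.055, edgeR adjusted p = 0.0022). Again every Dek-silenced well was above every scrambled well. With the correction for GC content and length both cornichons still passed, at 0.32 for Cnih2 and 0.16 for Cnih3, and Cnih2 no longer led, with Cacng5 at 0.34 and Cacng4 at 0.33.

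Shisa9 (CKAMP44) and Shisa7 (CKAMP59) moved the other way. Shisa9, on the plus strand of chromosome 16 from 11984113 to 12270902, was at 64.9, 67.6 and 74.1 CPM in Dek-silenced wells, against 97.6, 96.3 and 90.4 CPM in scrambled wells. The groups were well apart, and Shisa9 was 28.0% lower in Dek-silenced wells (log2FC = -0.47, SE 0.066, edgeR adjusted p = 8.1e-05). Shisa7, which is also known as an auxiliary protein of GABA-A receptors, spans 4825552 to 4844696 of chromosome 7, minus strand. It was at 54.3, 56.9 and 52.1 CPM in Dek-silenced wells, against 66.6, 72.6 and 79.1 CPM in scrambled wells. Shisa7 fell by 0.43 on the log2 scale (SE 0.073, edgeR adjusted p = 3.6e-04), with no overlap. These were the smallest adjusted p-values among the 10 genes. Shisa9 and Shisa7 passed in the same direction in all 15 alternative analyses of this comparison, as did Cacng2, Cacng4, Cacng5, Cnih2 and Cnih3.

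**Figure D2:**
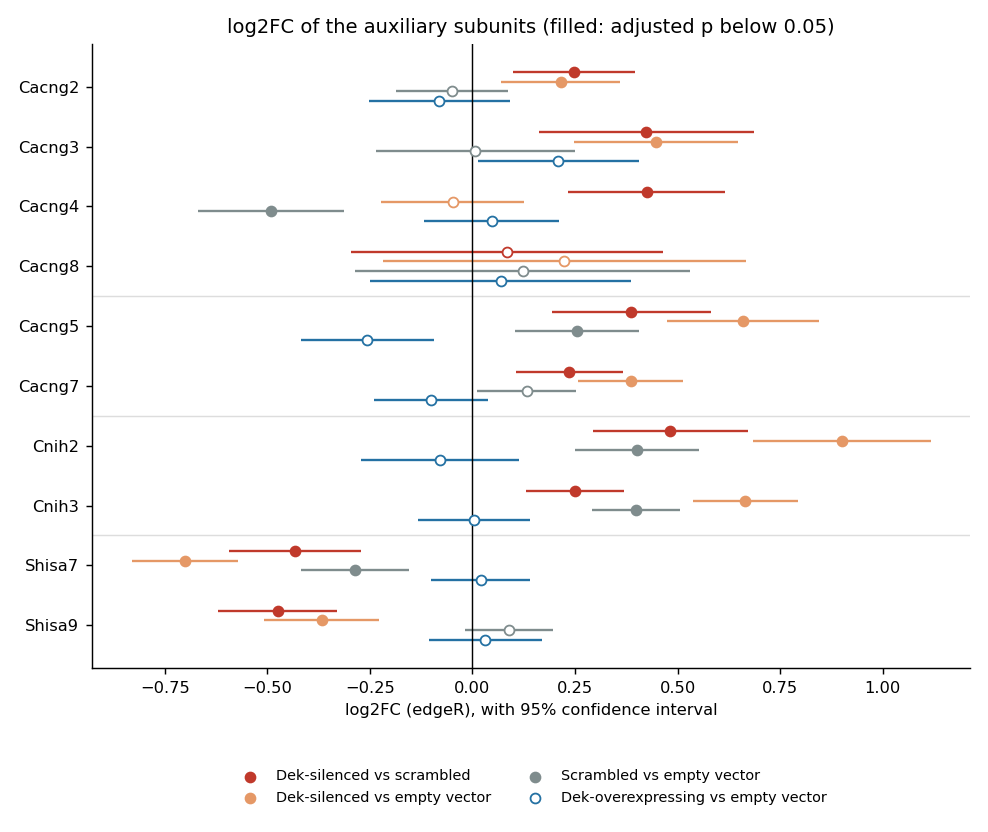
log2FC (horizontal axis) with 95% confidence intervals for the 10 auxiliary subunit genes (rows, grouped as type I TARPs, type II TARPs, cornichons and CKAMP genes) in 4 comparisons of 3 wells with 3; filled points had an adjusted p below 0.05. In Dek-silenced against scrambled wells the TARP and cornichon points lie between 0.08 and 0.48 and both Shisa points below -0.4, while the Dek-overexpressing points are all open.

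The promoter sequences of the members that moved furthest in each direction with a window are shown because the genes fall in opposite groups. RefSeq windows on GRCm38.p6, from 250 bases before to 50 after a transcription start, were found for 8 of the 10 genes, in 9 windows. In the following, Cnih2 is chr19:5098472-5098771 (minus strand) and Shisa7 is chr7:4844647-4844946 (minus strand), each 5′ to 3′, with capitals for the GC box GGGCGG, the letters known to be bound by Sp1, or its complement.
Cnih2: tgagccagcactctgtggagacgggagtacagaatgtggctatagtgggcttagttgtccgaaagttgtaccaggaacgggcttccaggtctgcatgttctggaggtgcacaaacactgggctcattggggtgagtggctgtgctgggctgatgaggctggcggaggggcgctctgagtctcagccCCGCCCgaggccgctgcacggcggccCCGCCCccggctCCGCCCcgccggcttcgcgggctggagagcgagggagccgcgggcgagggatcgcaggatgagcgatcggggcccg
Shisa7: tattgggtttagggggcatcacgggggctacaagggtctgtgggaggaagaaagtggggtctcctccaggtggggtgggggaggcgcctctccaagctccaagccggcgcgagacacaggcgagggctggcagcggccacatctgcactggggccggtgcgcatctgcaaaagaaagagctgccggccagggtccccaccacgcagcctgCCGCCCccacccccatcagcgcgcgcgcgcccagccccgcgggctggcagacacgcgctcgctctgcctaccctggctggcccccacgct
The Cnih2 window held 3 GC boxes and the Shisa7 window 1. A GC box was present in 5 of the 9 windows, those of Cacng5, Cacng7, Cnih2 and Cnih3, which rose, and Shisa7, which fell, and in 35.7% of all 32851 windows. The windows of Cacng2, Cacng3 and Cacng8, which held none, lay wholly inside the annotated gene spans. That of Cacng8 began at 3393792 and the gene at 3390683. The second Cacng5 window, also without a GC box, lay inside its gene too. These windows may not cover the annotated 5′ end, so the absence of a GC box there is not read further. On both strands, no window of the 8 genes held the EGR motif GCGTGGGCG (0.612% of all windows) or the CRE letters TGACGTCA (1.79%). The E-box CACGTG lay in the Cnih3 window and in 7.15% of all windows. These are matches of letters and say nothing of binding.

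The heptamer AAGAGGA, which also lies within the Dek sequence that the hairpin targets, was looked for in annotated 3′ UTRs (GENCODE vM21), on the transcript strand. It had been picked out with the values of these libraries known, so it is given as a description. Sites were present in Cacng2, which rose, and Shisa9, which fell, and are shown with the heptamer in capitals.
Cacng2: cttgtgtctggAAGAGGAacactcgtctc
Shisa9: atgggcacacgAAGAGGAgtgtgccagag
No annotated 3′ UTR of the other 8 auxiliary subunit genes held these letters, Shisa7 included, although its longest 3′ UTR has 4083 bases. Among the pore subunits Gria1 and Gria2 held them and Gria3 and Gria4 did not. Of 13444 genes with an annotated 3′ UTR tested in this comparison, 22.1% held the heptamer in at least 1 transcript. The median log2FC in Dek-silenced against scrambled wells was -0.18 over the genes that held it and 0.04 over those that did not. No test was made. The heptamer was picked with these same values known and 3′ UTR length was not taken into account. The gap between these medians therefore cannot be read as a result.

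The balance between auxiliary and pore transcripts differed between groups. Summed per kilobase, the cornichons were at 215, 281 and 297% of the Gria1 to Gria4 sum in Dek-silenced wells, against 126, 135 and 139% in scrambled wells. Type I TARPs were at 27.9, 32.4 and 34.4% of it in Dek-silenced wells and 17.04, 17.8 and 18.0% in scrambled wells, and type II TARPs at 41.8, 43.7 and 47.8% in Dek-silenced wells and 24.6, 24.9 and 25.4% in scrambled wells. For these 3 classes every Dek-silenced well lay above every scrambled well. The CKAMP genes were at 20.1, 23.2 and 26.2% of the pore sum in Dek-silenced wells and 21.2, 21.8 and 22.1% in scrambled wells, and these ranges overlapped. Both terms of the ratio differed: the pore sum itself was 84.1 to 102 CPM per kb in Dek-silenced wells and 132 to 135 CPM per kb in scrambled wells. Gria2, whose product limits calcium entry, was at 153, 132 and 132 CPM in Dek-silenced wells, against 319, 327 and 331 CPM in scrambled wells (log2FC = -1.24, SE 0.062, edgeR adjusted p = 2.3e-08). Within the sum of the 10 auxiliary genes, cornichons made up 72.5 ± 1.82% in Dek-silenced and 67.5 ± 0.65% in scrambled wells, and CKAMP genes 6.39 ± 0.27% in Dek-silenced and 10.98 ± 0.23% in scrambled wells (mean ± SD, n = 3). No test was made on these sums, and they carry no correction for GC content and length. The longest transcript of Cnih2 had 62.3% GC and that of Gria2 36.8%. With that correction the log2FC of Cnih2 in Dek-silenced against scrambled wells was 0.32, and 0.48 without it.

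**Figure D3:**
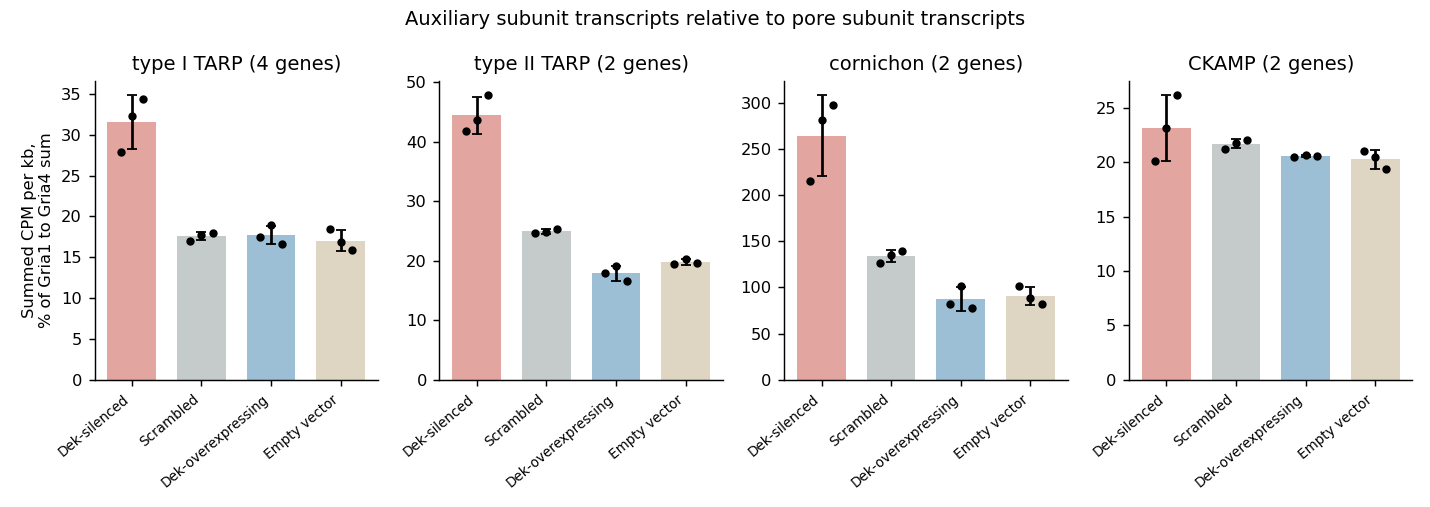
Summed CPM per kb of type I TARPs, type II TARPs, cornichons and CKAMP genes (Shisa7 and Shisa9) in the 4 groups. Values are percentages of the summed CPM per kb of Gria1 to Gria4 (vertical axes, starting at 0). Bars are means, error bars the SD and dots the 3 wells. TARP and cornichon ratios are highest in Dek-silenced wells (cornichons 215 to 297%, scrambled 126 to 139%), and the CKAMP ratio overlaps between Dek-silenced and scrambled wells. No correction for GC content was applied.

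Genes that act with the auxiliary subunits were counted in the same comparison, where 26.2% of all genes tested were higher and 28.5% lower. Of 16 other auxiliary or complex proteins 3 rose and 6 fell, with a median log2FC of 0.03, so that the share called was near that over all genes. The genes that rose were Prrt1, also known as SynDIG4 (log2FC = 0.88, SE 0.18, edgeR adjusted p = 0.0014), Olfm1, the secreted noelin-1 (0.36, SE 0.047), and Cnih1, a cornichon of the general secretory pathway (0.21, SE 0.069, edgeR adjusted p = 0.0205). Prrt2 (-0.87, SE 0.095), Olfm2 (-0.77, SE 0.11), Shisa6 of the CKAMP family (-0.51, SE 0.097) and Vwc2l (-0.94, SE 0.20) were among those that fell. Shisa8, also of the CKAMP family, was at 0.49 (SE 0.28, edgeR adjusted p = 0.16), which did not pass. The 6 genes of receptor assembly in the endoplasmic reticulum all passed. Cpt1c (0.76, SE 0.061), Abhd6, which limits surface delivery of the receptor (0.80, SE 0.068), Frrs1l (0.57, SE 0.086) and Porcn (0.18, SE 0.067) rose, and Sacm1l (-0.49, SE 0.073) and Abhd12 (-0.33, SE 0.051) fell.

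The same shares over all genes, 26.2% higher and 28.5% lower, stand beside the next counts. Of the 5 membrane-associated guanylate kinases, scaffolds that bind TARP tails, Magi2 rose (log2FC = 0.47, SE 0.068), and Dlg3, for SAP102 (-0.34, SE 0.054), and Dlg4, for PSD-95 (-0.26, SE 0.049), fell. Of 11 anchoring and trafficking genes 1 rose, Nptx1, a pentraxin that clusters receptors (0.69, SE 0.12), and 6 fell. The largest fall was that of Akap5, which anchors kinases and calcineurin near the receptor (-1.86, SE 0.088), and Gripap1 (-0.95, SE 0.081), the 4.1N gene Epb41l1 (-0.71, SE 0.048) and Grip1, a PDZ protein that binds the pore subunits (-0.68, SE 0.070), fell too. Of 10 kinases and phosphatases that act on TARP tails 1 rose, Ppp1ca (0.23, SE 0.047), and 5 fell, among them Camk2d (-1.03, SE 0.068), Prkca (-0.44, SE 0.052), Prkcb (-0.41, SE 0.079) and the calcineurin subunit Ppp3cb (-0.39, SE 0.059). The medians of these 3 lists were -0.11, -0.40 and -0.27 in the order given, beside -0.0011 over all genes tested. Against empty vector wells, with the same Dek-silenced libraries, Frrs1l was lower (-0.56, SE 0.068), Magi2 was at -0.06 (edgeR adjusted p = 0.46) and Abhd12 at -0.05 (edgeR adjusted p = 0.44), while Shisa8 was higher (1.40, SE 0.27, edgeR adjusted p = 5.7e-04).

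**Figure D4:**
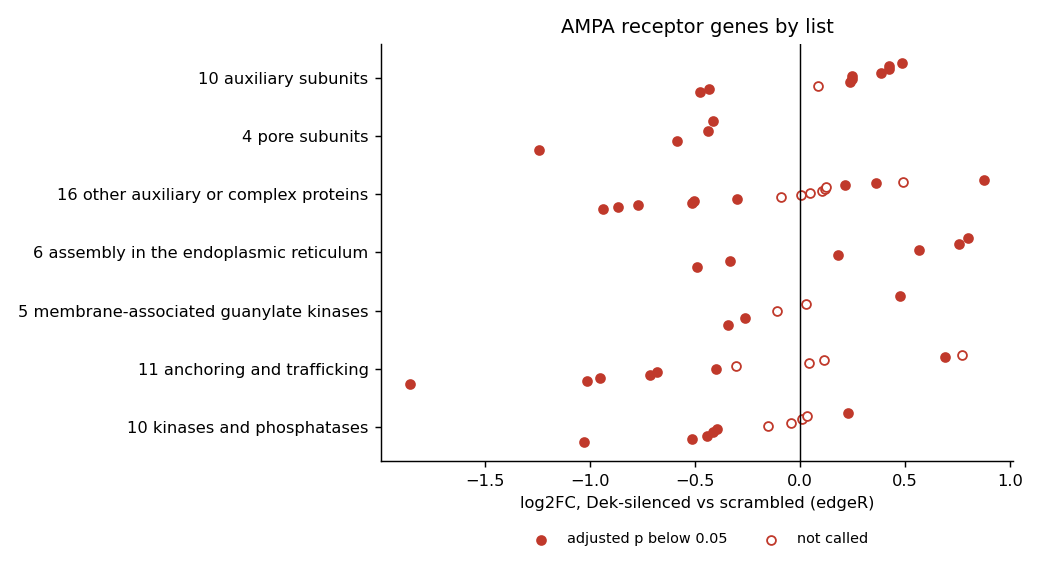
log2FC in Dek-silenced against scrambled wells (horizontal axis) of the auxiliary subunits, the pore subunits and 5 lists of genes that act with them (rows); each dot is a gene, filled at an adjusted p below 0.05. The 10 auxiliary subunits fall on both sides of 0, from -0.47 to 0.48, whereas the 4 pore subunits lie below 0 and Akap5 is the lowest point at -1.86.

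Sums of some marker lists differed between these groups too. Over all genes tested here 26.2% were higher and 28.5% lower, and these shares stand beside the counts that follow. Summed oligodendrocyte markers were 83.0 to 90.1 CPM in Dek-silenced and 30.9 to 41.6 CPM in scrambled wells, with 4 of 5 tested markers higher and 1 lower. Oligodendrocyte precursor markers summed to 92.9 to 201 CPM in Dek-silenced and 62.3 to 111 CPM in scrambled wells, with 3 of 5 tested markers higher. Pan-neuronal markers summed to 6206 to 6786 CPM in Dek-silenced and 7204 to 7353 CPM in scrambled wells, with 2 of 9 higher and 5 lower. GABAergic (2570 to 2944 CPM in Dek-silenced, 2635 to 2835 CPM in scrambled wells), excitatory (324 to 359 CPM in Dek-silenced, 305 to 356 CPM in scrambled wells) and astrocyte sums (458 to 758 CPM in Dek-silenced, 481 to 708 CPM in scrambled wells) overlapped. Of the GABAergic markers 3 of 9 were higher, among them Dlx2 (1.71), and 2 lower, among them Lhx6 (-1.63), near the shares over all genes. Of the excitatory markers 1 of 7 was higher, Slc17a6 (0.62), and 1 lower, Neurod6 (-0.81), and of 8 astrocyte markers 0 were called (edgeR), with 0 at an unadjusted p below 0.05. Entorhinal layer II markers summed to 1436 to 1774 CPM in Dek-silenced and 1364 to 1428 CPM in scrambled wells, and microglial markers to 4.02 to 4.36 CPM in Dek-silenced and 4.88 to 6.87 CPM in scrambled wells, without overlap. Of 3 layer II markers 1 was called, Wfs1, higher (0.81). Most of that sum was Reln, with means of 1497 CPM in Dek-silenced and 1288 CPM in scrambled wells (0.20, edgeR adjusted p = 0.054). Of 4 tested microglial markers 1 was called, Aif1, lower (-1.59). The part of these cells in the changes of the auxiliary subunits was not tested.

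A second reading of the same Dek-silenced wells, against the empty vector wells, gave 6 auxiliary genes higher (34.0% of 14292 genes tested were higher) and 2 lower (33.5%). This comparison shares the Dek-silenced libraries with the one above, and its groups differ in vector, promoter and hairpin as well as in Dek. Cnih2 reached a log2FC of 0.90 (SE 0.097, edgeR adjusted p = 1.5e-05), with 228, 288 and 268 CPM in Dek-silenced wells and 156, 137 and 128 CPM in empty vector wells. Cnih3 (0.67, SE 0.059) and Cacng5 (0.66, SE 0.085) followed, and Cacng3 (0.45, SE 0.092), Cacng7 (0.39, SE 0.059) and Cacng2 (0.21, SE 0.067, edgeR adjusted p = 0.012) were also higher. Shisa7 (-0.70, SE 0.060) and Shisa9 (-0.37, SE 0.065) were lower. Cacng4 was at 27.7, 25.6 and 27.7 CPM in Dek-silenced wells and 28.0, 26.1 and 29.7 CPM in empty vector wells, so that these groups overlapped (log2FC = -0.05, SE 0.080, edgeR adjusted p = 0.61). Cacng8 did not pass (0.22, SE 0.20, edgeR adjusted p = 0.33). Cacng2 did not pass without empty vector replicate 1 (0.19, edgeR adjusted p = 0.052) or replicate 3 (0.16, edgeR adjusted p = 0.095). Excitatory markers summed to 324 to 359 CPM in Dek-silenced and 496 to 533 CPM in empty vector wells, GABAergic markers to 2570 to 2944 CPM in Dek-silenced and 2306 to 2361 CPM in empty vector wells, and entorhinal layer II markers to 1436 to 1774 CPM in Dek-silenced and 851 to 998 CPM in empty vector wells. Oligodendrocyte markers summed to 83.0 to 90.1 CPM in Dek-silenced and 44.7 to 45.6 CPM in empty vector wells. None of these 4 sums overlapped between the groups. Pan-neuronal sums (6206 to 6786 CPM in Dek-silenced, 7155 to 7435 CPM in empty vector wells) did not overlap either. Nor did oligodendrocyte precursor sums (92.9 to 201 CPM in Dek-silenced, 52.2 to 82.9 CPM in empty vector wells). Microglial sums (4.02 to 4.36 CPM in Dek-silenced, 9.49 to 9.88 CPM in empty vector wells) were also apart. By gene, 1 of 7 excitatory markers was higher and 3 lower, and 6 of 9 GABAergic markers were higher and 2 lower. Of 3 layer II markers 2 were higher and 1, Calb1, was lower (-0.38, SE 0.088). Of 5 tested oligodendrocyte markers 3 were higher and 1 lower. Of 9 pan-neuronal markers 3 were higher and 4 lower, and of 5 tested precursor markers 2 were higher and 0 lower. Of 2 tested microglial markers 1 was higher and 1 lower. The part of these markers in the result was not tested.

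The controls themselves differed in 5 of the 10 auxiliary genes. Against empty vector wells, 3 genes were higher in scrambled wells (21.3% of 14096 genes tested were higher) and 2 were lower (21.8%). Cnih2 was at 174, 190.2 and 191 CPM in scrambled wells and 156, 137 and 128 CPM in empty vector wells (log2FC = 0.40, SE 0.068, edgeR adjusted p = 8.2e-04). Cnih3 differed as much, at 119, 117 and 122 CPM in scrambled wells and 95.2, 89.1 and 86.7 CPM in empty vector wells (log2FC = 0.40, SE 0.049, edgeR adjusted p = 3.2e-05). Cacng5 was higher by 0.26 (SE 0.070, edgeR adjusted p = 0.0097). Cacng4 was lower in scrambled wells, at 18.2, 21.0 and 20.6 CPM against 28.0, 26.1 and 29.7 CPM in empty vector wells (log2FC = -0.49, SE 0.082, edgeR adjusted p = 3.5e-04). Shisa7 was lower by the same test (-0.29, SE 0.061, edgeR adjusted p = 0.0020), and Shisa9 was at 0.09 (SE 0.050, edgeR adjusted p = 0.16). The hairpin and its vector, the promoter and any difference between the cultures cannot be told apart here. Excitatory markers summed to 305 to 356 CPM in scrambled and 496 to 533 CPM in empty vector wells. GABAergic markers summed to 2635 to 2835 CPM in scrambled and 2306 to 2361 CPM in empty vector wells. Entorhinal layer II markers summed to 1364 to 1428 CPM in scrambled and 851 to 998 CPM in empty vector wells. Oligodendrocyte sums (30.9 to 41.6 CPM in scrambled, 44.7 to 45.6 CPM in empty vector wells) and microglial sums (4.88 to 6.87 CPM in scrambled, 9.49 to 9.88 CPM in empty vector wells) differed too. None of these sums overlapped between the controls. The part of these markers in these differences was not tested.

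The values between hairpin and empty vector wells moved most with the correction for GC content and length. In Dek-silenced against empty vector wells it took Cnih2 to 0.37, Cnih3 to 0.39, Cacng3 to 0.14 (edgeR adjusted p = 0.22) and Cacng7 to 0.01 (edgeR adjusted p = 0.92). Cacng4 passed as lower with it, at -0.31 (edgeR adjusted p = 0.0030). Cacng8, with the highest GC content, turned to -0.28 (edgeR adjusted p = 0.078), and Cacng5, at 0.51, was then the highest of the 10 genes. In scrambled against empty vector wells it took Cnih2 to 0.06 (edgeR adjusted p = 0.44) and Cacng5 to 0.17 (edgeR adjusted p = 0.074), and Cnih3 still passed at 0.23. The uncalled values of Cacng7, Cacng8 and Cacng3 turned to -0.11, -0.17 and -0.18 with it, while Shisa9, with the lowest GC content of the 10 genes (47.2%), passed as higher at 0.16 (edgeR adjusted p = 0.018). The longest transcripts of Cnih2 and Cacng7 had 62.3 and 58.1% GC, and that of Cacng2, which moved least with it in this comparison, 51.2%. In Dek-silenced against scrambled wells the correction left 6 of the 7 rises and both falls.

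**Figure D5:**
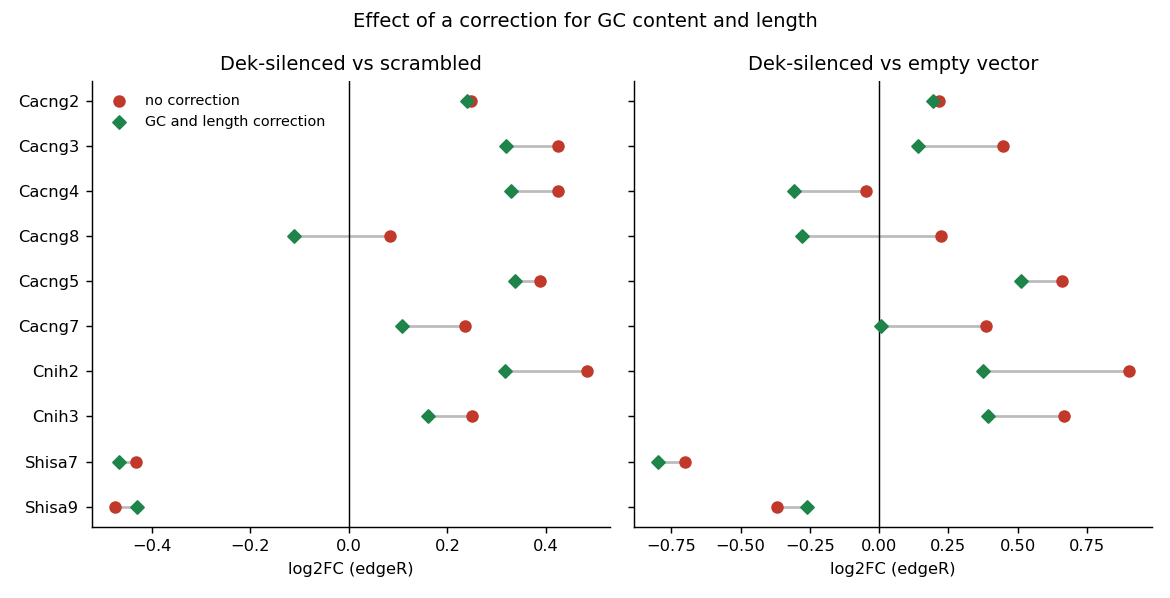
log2FC (horizontal axes) of the 10 auxiliary subunit genes in Dek-silenced against scrambled wells (left) and against empty vector wells (right), without (circles) and with (diamonds) a correction for GC content and length; lines join the values of a gene. Against empty vector wells Cnih2 moves to 0.37 with the correction and Cacng7 to 0.01, and both Shisa genes stay below 0 in both panels.

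In Dek-overexpressing neurons 0 of the 10 auxiliary genes passed the test in either direction, where 0.00710% of 14089 genes, Dek itself, were called higher and 0% lower (edgeR). Of the 10 genes, 2 had an unadjusted p below 0.05, as had 6.60% of all genes tested, and limma-voom and the DESeq2 Wald test also called 0. The log2FC ranged from -0.26 to 0.21. Cacng5 was at 29.7, 28.0 and 27.3 CPM in Dek-overexpressing wells and 32.3, 35.9 and 33.7 CPM in empty vector wells, which did not overlap (log2FC = -0.26, SE 0.076, 95% interval -0.42 to -0.09, edgeR adjusted p = 0.64). Cacng3 was at 18.1, 17.4 and 16.0 CPM in Dek-overexpressing wells and 15.3, 14.8 and 14.6 CPM in empty vector wells (log2FC = 0.21, SE 0.091, edgeR adjusted p = 0.72). For Shisa7 the 95% interval ran from -0.10 to 0.14 and for Shisa9 from -0.11 to 0.17. The 5 lists of genes that act with the auxiliary subunits held 0 called genes as well (edgeR). Beside the 6.60% of all genes, an unadjusted p below 0.05 was found for 4 of 16 other auxiliary or complex proteins, 0 of 6 assembly genes, 0 of 5 guanylate kinases, 2 of 11 anchoring genes and 4 of 10 kinases and phosphatases. For Cnih2 the interval ran from -0.27 to 0.11 and for Cacng8, the least precise, from -0.25 to 0.39. GABAergic marker sums (2060 to 2098 CPM in Dek-overexpressing, 2306 to 2361 CPM in empty vector wells) did not overlap. Nor did microglial sums (10.0 to 13.4 CPM in Dek-overexpressing, 9.49 to 9.88 CPM in empty vector wells), and the other marker sums did. No marker was called (edgeR). An unadjusted p below 0.05 was found for 3 of 9 GABAergic, 3 of 9 pan-neuronal and 2 of 3 layer II markers. Their part was not tested.

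The difference between the response to silencing and the response to overexpression was tested in a fit of all 12 libraries. It was positive for 6 auxiliary genes (20.4% of 14604 genes tested) and negative for 2 (22.7%). Cacng5 had the largest difference (0.66, SE 0.12, edgeR adjusted p = 2.2e-04), with a log2FC of 0.39 in silencing and -0.26 in overexpression. Cnih2 (0.58, SE 0.14, edgeR adjusted p = 0.0041), Cacng4 (0.40, SE 0.11), Cacng7 (0.36, SE 0.082), Cacng2 (0.35, SE 0.10) and Cnih3 (0.26, SE 0.082, edgeR adjusted p = 0.015) followed. Shisa9 (-0.49, SE 0.093, edgeR adjusted p = 3.5e-04) and Shisa7 (-0.43, SE 0.091, edgeR adjusted p = 8.1e-04) differed in the negative direction. Cacng3 was at 0.23 (SE 0.15, edgeR adjusted p = 0.24) and Cacng8 at 0.03 (SE 0.26, edgeR adjusted p = 0.93). After the correction for GC content and length Cacng7 (0.19, edgeR adjusted p = 0.083) and Cnih3 (0.16, edgeR adjusted p = 0.085) did not pass and Cnih2 passed at 0.33. Nor did Cnih3 pass without Dek-overexpressing replicate 1 (0.21, edgeR adjusted p = 0.068).

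Across the 12 libraries each CKAMP gene was the nearest of the 10 genes to the other in profile, at a distance of 0.20. Shisa9 was lower in Dek-silenced wells (64.9 to 74.1 CPM) than in any other well, while Shisa7 was lower in scrambled than in empty vector wells too. This distance was the root mean square difference of log2 CPM over the 12 libraries, each gene centred on its own mean. On this scale the spread of a gene about its mean was 0.19 for Shisa9 and 0.30 for Shisa7. The distance between the CKAMP genes was thus not below the spread of Shisa9 itself. Each CKAMP gene was also compared with 11014 other genes with a mean of at least 5 CPM. The genes nearest to Shisa9 were Mlec (0.057), Morc2a (0.065) and Rps6kc1 (0.065), and those nearest to Shisa7 were Flna (0.048), Arhgap21 (0.055) and Dnmt3a (0.058). The median difference of all genes was 0.28 from Shisa9 and 0.34 from Shisa7. Within the 10 genes, the nearest pair overall was Cacng2 and Cacng7 (0.12), followed by Cacng7 and Cnih3 (0.14) and Cacng5 and Cnih3 (0.15).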

How the data were processed

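RNA from 12 wells was made into libraries from 200 ng of RNA with a TruSeq kit. The authors deposited estimated counts per gene, not normalized; their processing notes name Salmon, DESeq2 and mm10, without versions, while the methods name STAR, so the path from reads to counts is not certain. Of the values, 38.6% were not whole, and they were rounded. Comparisons of 3 libraries with 3 were run in edgeR 4.0.16 (R 4.3.3) with filterByExpr, TMM scaling and its quasi-likelihood test, robust, with no covariates. Calls rest on p adjusted by Benjamini-Hochberg across the tested genes, with 0.05 as the threshold. Levels are CPM with TMM scaling over the 12 libraries, divided by GENCODE vM21 exon length where auxiliary and pore genes are compared with each other. Members and lists were chosen with earlier results of these data known. Text names the members, Dek, the pore subunits, up to 4 list genes per direction with the smallest adjusted p, and the 3 nearest genes in profile for the 2 members with the smallest adjusted p. Shisa8, the values of list genes against empty vector and the single marker genes were named after their values were seen. Alternatives were DESeq2 1.42.0 size factors or Wald test, total counts, limma-voom 3.58.1, no filter, 5 CPM in 3 libraries, a joint fit of the 12 libraries, a block for the replicate number, leaving out single libraries, and a smooth correction for GC content and length (13631 of 14232 genes). The edgeR step was tested on simulated data. Python 3.11.15, pandas 2.3.3 and matplotlib 3.10.9 made tables and figures.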

Additional observations from a re-analysis of the deposited data

How the results depend on the processing

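Over 15 alternatives, 147 of 150 values of the auxiliary genes kept their call in Dek-silenced against scrambled wells, 150 of 150 in overexpression, 146 of 150 between the controls and 145 of 150 against empty vector, and over 20 alternatives 196 of 200 for the difference of responses (0 called values changed sign). With the GC content and length correction the uncalled value of Cacng8 was -0.11 in Dek-silenced against scrambled wells and -0.27 in the difference, and 0.08 and 0.03 without it. The changed calls not given above were rises gained by Cacng7 between the controls without scrambled replicate 1 (0.16, edgeR adjusted p = 0.044) and by Cacng3 in the difference without scrambled replicate 1 (0.37, edgeR adjusted p = 0.038). Of the pore subunits, Gria3 in Dek-silenced against empty vector wells went to 0.031 with the GC content and length correction, and was -0.47 without it, and between the controls it passed as higher at 0.40 (edgeR adjusted p = 2.2e-04), with 0.10 without it. The cause was not tested. Scaling by total counts turned the balance of all calls in Dek-silenced against scrambled wells to 4793 higher and 3210 lower (3730 and 4060 with TMM), and in the difference of responses to 3755 and 2733 (2972 and 3315 with TMM). It shifted the median of all genes to 0.098 in both and changed no call of the auxiliary genes. In overexpression the count over all genes was 1, against 4 with the DESeq2 Wald test, 7 with no filter, 2 with the GC content and length correction, and 1 to 7 with 1 well left out (7 without empty vector replicate 1, 6 without Dek-overexpressing replicate 2, 2 without Dek-overexpressing replicate 3).

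Whether wells of the same replicate number share a source is not stated. Same-numbered Dek-silenced and scrambled wells correlated at 0.304, 0.133 and 0.0697. Replicate 1 of each of these groups correlated negatively with replicates 2 and 3 of the other (-0.233 to -0.118). Dek-silenced replicate 2 correlated best with scrambled replicate 3 (0.15). Same-numbered wells of the other comparisons correlated at -0.212 to -0.0197. A shared replicate effect was not tested, and the main fit has no block for it. With the number as a replicate block the auxiliary genes gave 7 higher and 2 lower in Dek-silenced wells, 0 and 0 in overexpression, 3 and 2 between the controls, 6 and 2 against empty vector and 6 and 2 in the difference. Over all 14232 genes tested in Dek-silenced against scrambled wells, the blocked fit called 8620, 4208 higher and 4412 lower (7790 called without the block). In overexpression it called 1 and 0 of 14089 genes, and between the controls 2351 and 2546 of 14096. Against empty vector it called 4514 and 4528 of 14292, and in the difference 2908 and 3218 of 14604. Leaving out 1 well gave 6 to 7 auxiliary genes higher and 2 lower in Dek-silenced against scrambled wells.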
